A study of Arabidopsis thaliana with 6 samples.

Results

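Floral buds of the atyak1-1 mutant of Arabidopsis thaliana were compared with wild-type buds on 4 of the 6 Affymetrix ATH1 arrays of the series, chosen by their titles as replicates 1 and 2 of each genotype. The other 2 arrays, of the allele atyak1-2, served to estimate the spread between replicates and to test whether the alleles differed. They also entered the mean signals by which probe sets were filtered and genes chosen. Transcripts of atyak1-1 and of the wild type, both in the Col-0 background and 42 days old, were measured in total RNA of mixed buds no older than stage 13, taken from the primary inflorescence of plants in equal light and dark periods. The labels name no treatment in any group and do not say what kind of lesion the allele carries. The titles call the replicates biological without saying whether they came from separate plants or sowings, so p-values measure only the spread between these samples. The series asked how AtYAK1 acts in the development of the male gametophyte.

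AtYAK1 is a protein kinase of the DYRK family, whose yeast relative Yak1 slows growth when nutrients run short. The male gametophyte of flowering plants is the pollen grain, in which a large vegetative cell carries the sperm cells and later grows the pollen tube. Late in its maturation the grain stocks transcripts for wall-loosening enzymes, sugar uptake, actin filaments and cell-surface signalling, on which the tube depends after it germinates. The tapetum, the innermost anther layer, feeds the developing grains and supplies their outer wall. Buds also hold sepals, petals, carpels and nectaries, the glands at the base of the flower that secrete sugar.

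The values are MAS5 signals, which are intensities in arbitrary units scaled so that all arrays have the same overall level. Median signals were 223 and 213 on the atyak1-1 arrays and 222 and 216 on the wild-type arrays. RNA integrity was read from control probe sets: for actin the 3′ over 5′ ratio was 1.56 and 1.43 in atyak1-1 and 1.91 and 1.58 in the wild type. The GAPDH controls gave 1.64 and 1.41 in atyak1-1 and 1.49 and 1.46 in the wild type, so the groups overlapped there. No probe set is named for AtYAK1 in the platform table used, and its transcript gave no check of the genotype labels. The labelled tissue was checked on anther genes: the 5 tapetum and pollen wall genes that were tested had signals from 700 to 3783 in atyak1-1 and from 586 to 3501 in the wild type. Of 12 floral organ identity genes 1 had a named probe set, and it was too dim to be tested.

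Most of what changed in atyak1-1 buds was lower. With limma and a threshold of 0.05 on the adjusted p, 160 of the 15164 probe sets differed (1.06%): 17 were higher (0.112%) and 143 lower (0.943%) than in the wild type. Among the lower ones 86 fell at least 4-fold, and their changes ran from -6.50 to -0.82 on the log2 scale. Those that rose ranged from 0.68 to 5.39, and 6 of them rose at least 4-fold. The median signal of the 143 lower probe sets was 136 and 90.5 on the atyak1-1 arrays of replicates 1 and 2, against 808 and 767 on the wild-type arrays. In 57 of them the geometric mean in atyak1-1 was under 73.6, the signal filter of the test, so the size of those folds is uncertain. Over all probe sets the median log2 fold change was 0.09, and 4729 probe sets (31.2%) had both atyak1-1 arrays above both wild-type arrays, against 2401 (15.8%) with both below. With the replicate number as a block, 789 passed, 211 higher (1.39%) and 578 lower (3.81%, with 5.20% in all), and all 160 were among them. The count depended on single arrays. Leaving out wild-type replicate 1 left 6 and leaving out wild-type replicate 2 left 2. It became 439 when atyak1-1 replicate 1 was dropped, 73 when atyak1-2 replicate 1 was dropped and 72 when replicate 2 of that allele was. In buds, fewer cells of a type and less RNA per cell cannot be told apart.

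The largest rise among named genes was in AT1G12010, which encodes an ACC oxidase, the enzyme of the last step of ethylene synthesis. Its signal was 1303 and 2155 in atyak1-1, against 48.7 and 32.9 in the wild type. Every atyak1-1 value thus lay far above both wild-type values, a rise of 41.8-fold (log2 fold change 5.39 ± 0.39, SE, 2 against 2 arrays; adjusted p = 0.0042, limma). Because the wild-type signals are dim, the size is uncertain, and with log2(signal + 32) the change was 4.56. EIN3, the transcription factor at the end of the ethylene signalling chain and the other of 2 tested genes of the 24 on the ethylene list, had 1396 and 1460 in atyak1-1 and 1446 and 1281 in the wild type (0.07, adjusted p = 0.84).

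AT2G05540, which encodes a glycine-rich protein, had signals of 3306 and 1807 in atyak1-1 and 398 and 162 in the wild type. It rose 9.63-fold (3.27 ± 0.47, adjusted p = 0.035), and in each group the replicate 2 array was the lower one. AT2G25510 had 8973 and 4384 in atyak1-1 against 1248 and 1078 in the wild type. Its rise of 5.41-fold (2.44 ± 0.37, adjusted p = 0.041) was larger within replicate 1, at 2.85, than within replicate 2, at 2.02.

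The other named genes that rose are of several kinds. AT5G03350, a lectin of the legume type, had 1002 and 956 in atyak1-1 against 277 and 307 in the wild type, a rise of 3.36-fold with little spread (1.75 ± 0.14, adjusted p = 0.0047). The lipid transfer protein genes AT5G55450 and AT5G01870 rose by 1.51 ± 0.24 and 1.45 ± 0.13 on the log2 scale (adjusted p = 0.048 and 0.0077). AT5G59670, a receptor kinase gene with leucine-rich repeats named after its values were seen, stood at 239 and 223 in atyak1-1 and at 84.4 and 87.7 in the wild type (1.42 ± 0.20, adjusted p = 0.033). BAT1, an acyltransferase that acts on brassinosteroid hormones, rose 2.64-fold (1.40 ± 0.16, adjusted p = 0.017). Smaller rises were found for Fes1C, a cofactor of the HSP70 chaperone (0.96), AT1G30880 (0.94) and the drought-induced gene DI21 (0.86). The groups did not overlap for any of these genes, which was a condition of naming them for all but AT5G59670. Of all probe sets, 31.2% had both atyak1-1 arrays above both wild-type arrays. DI21 had the widest gap between replicates, at 1.02 within replicate 1 and 0.71 within replicate 2.

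Among the 17 probe sets that rose, 11 have a gene name. Of those without one, the first had 408 and 272 in atyak1-1 against 37.3 and 47.1 in the wild type, and another had 318 and 200 in atyak1-1 against 19.6 and 35.9 in the wild type. Both were chosen after their values were seen, and their log2 fold changes of 2.99 and 3.25 rest on dim wild-type signals.

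**Figure D1:**
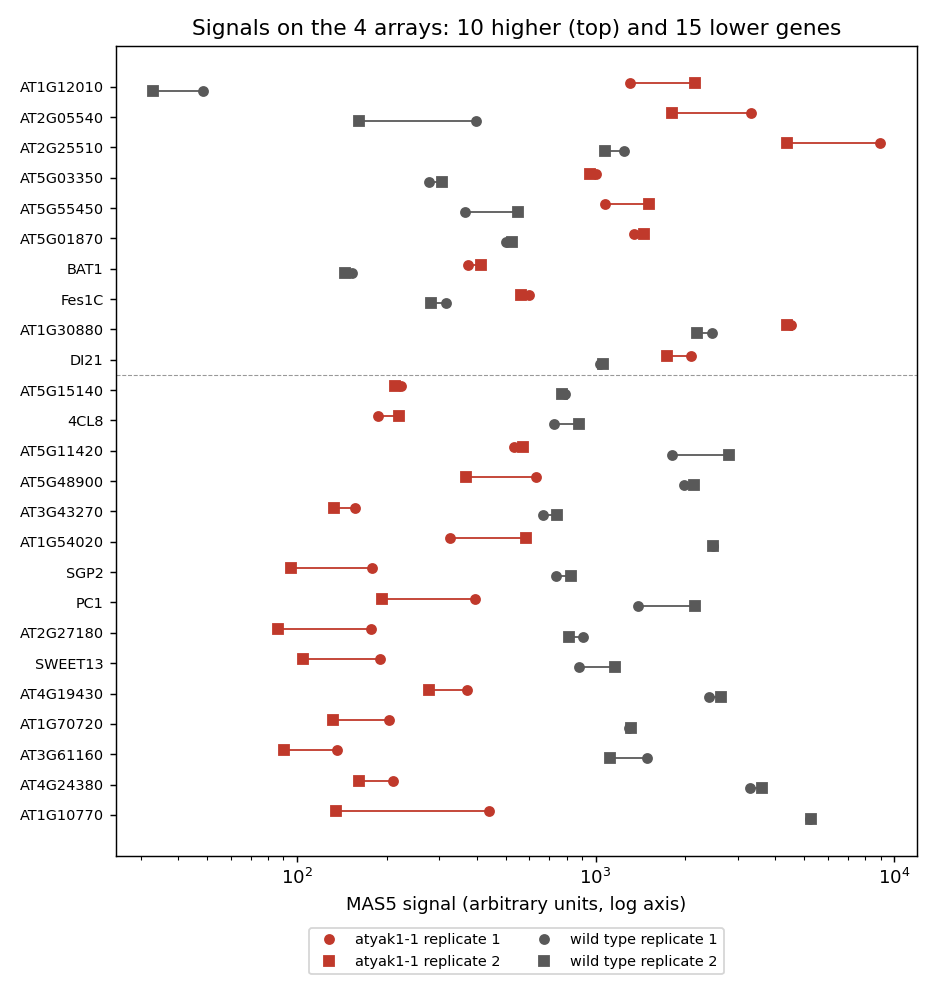
MAS5 signal (log axis, arbitrary units) of the 10 higher and 15 lower named genes in atyak1-1 (red) and the wild type (grey), with circles for replicate 1, squares for replicate 2 and lines joining the arrays of a group. The atyak1-1 and wild-type arrays do not overlap for any of these genes, which were chosen for that, and AT1G10770 shows the widest gap between its atyak1-1 arrays among the lower ones.

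In the other direction, several of the named genes act on pectin or belong to cell wall families. Pectin is the gel of the plant cell wall: methylesterases stiffen or loosen it, inhibitor proteins hold those enzymes back, and pectate lyases and polygalacturonases cut the chain. AT1G10770, whose family inhibits invertases or pectin methylesterases, had 440 and 135 in atyak1-1 against 5208 and 5260 in the wild type. It fell 21.5-fold (-4.42 ± 0.51, adjusted p = 0.017), and replicate 2 was the lower of the atyak1-1 arrays. AT4G02250, of the same family, was at 92.6 and 12.6 in atyak1-1 and at 2785 and 2826 in the wild type (-6.36 ± 0.86, adjusted p = 0.027), a change of -5.25 with log2(signal + 32). A further member, AT1G70720, fell 7.93-fold (-2.99 ± 0.37, adjusted p = 0.021).

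The pectin methylesterase gene AT5G07420 had 46.8 and 19.4 in atyak1-1 against 1165 and 1756 in the wild type (-5.57 ± 0.47, adjusted p = 0.0057). AT3G43270, another methylesterase gene, fell 4.89-fold to 156 and 133 in atyak1-1, against 667 and 743 in the wild type (-2.29 ± 0.21, adjusted p = 0.0071). Among pectate lyase genes, AT5G15110 fell to 42.2 and 4.29 in atyak1-1, against 971 and 845 in the wild type (-6.07 ± 0.97, adjusted p = 0.048), while AT5G48900 kept clear signals of 633 and 368, against 1982 and 2136 (-2.09 ± 0.28, adjusted p = 0.027). The polygalacturonase family genes AT5G48140 and AT2G23900 (-5.91 and -3.88), the methylesterase gene AT2G26450 (-4.27), the pectate lyase gene AT5G55720 (-0.85) and GH9A4, of the cellulase family (-5.05), also passed and were named after their values were seen. No list of cell wall genes was tested, and all those given here were picked from genes that passed. Members of these families that did not pass are not shown, so how far this group stands apart from other genes is not known. AT5G11420 and AT4G32460, both of the DUF642 family of cell wall proteins, fell by 2.03 ± 0.22 and 1.21 ± 0.17 on the log2 scale and kept clear signals in atyak1-1, at 532 and 572 for AT5G11420 and 2069 and 1594 for AT4G32460 (adjusted p = 0.012 and 0.034).

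Sugar transporters of the SWEET family, which let sugars pass out of or into cells along their gradient, were measured for 12 members, of which 3 passed. SWEET9, known for exporting sucrose in nectaries, was at 35.5 and 15.4 in atyak1-1 and at 1867 and 1289 in the wild type. This is a fall of 66.3-fold (-6.05 ± 0.45, adjusted p = 0.0045), or -4.81 with log2(signal + 32), and both replicates showed it, at -5.72 and -6.39. SWEET14 had 56.7 and 46.3 in atyak1-1 against 1070 and 886 in the wild type (-4.25 ± 0.44, adjusted p = 0.011), and the replicates gave -4.24 and -4.26. SWEET13, a close relative, had 190 and 105 against 882 and 1159 (-2.84 ± 0.32, adjusted p = 0.014).

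AtVEX1, the SWEET gene known from the vegetative cell of pollen and also known as SWEET5, had 287 and 32.5 in atyak1-1 and 1420 and 2613 in the wild type. The groups did not overlap, but the atyak1-1 replicates lay so far apart that it did not pass (-4.32 ± 0.92, adjusted p = 0.11), and it passed with the replicate block (0.013) and without atyak1-1 replicate 1 (-5.89, adjusted p = 0.0017), but not without atyak1-1 replicate 2 (-2.75, adjusted p = 0.056). SWEET4 had the same pattern, with 474 and 172 against 1260 and 1242 (-2.13 ± 0.45, adjusted p = 0.10, and 0.0053 with the block). It had -2.86 without atyak1-1 replicate 1 (adjusted p = 0.0036) and -1.40 without atyak1-1 replicate 2 (adjusted p = 0.11). The other 7 tested SWEET genes had log2 fold changes between -0.59 and 0.46 and did not pass (adjusted p from 0.24 to 0.96). The list holds 14 members, with a named probe set for 13, and the 3 of 12 that passed, all lower, stand beside 1.06% of all named genes. The family's median was -0.49, beside 0.10 for all 8212 named genes tested. SWEET9 and SWEET14 had atyak1-1 signals under the filter of 73.6 and were tested because of their wild-type signals.

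**Figure D2:**
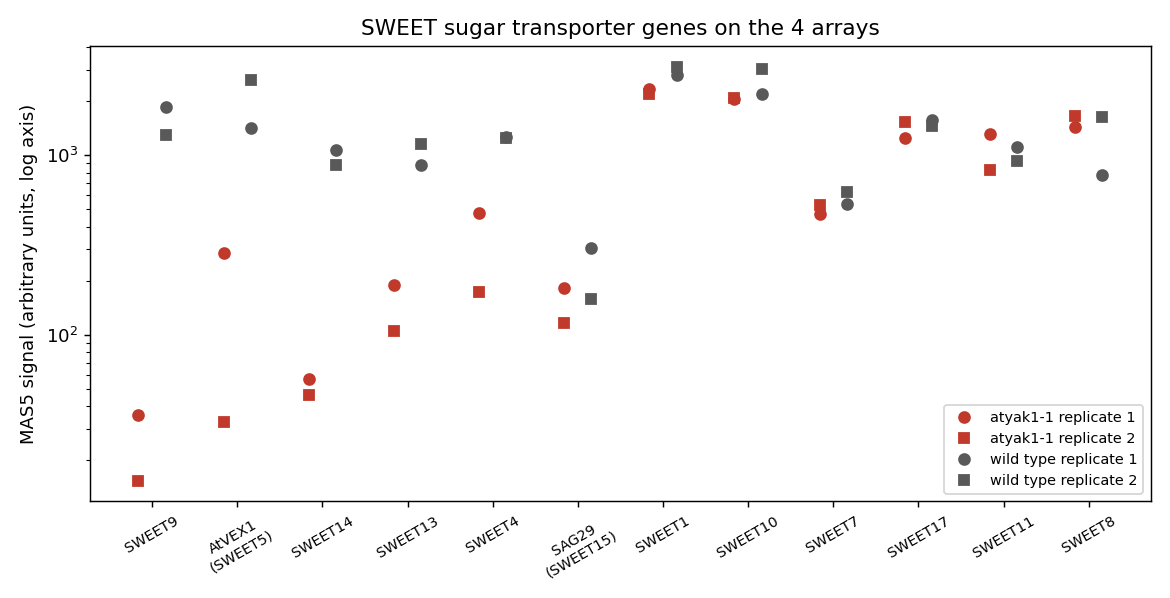
MAS5 signal (log axis, arbitrary units) of the 12 tested SWEET genes, ordered by log2 fold change, in atyak1-1 (red, left of each pair) and the wild type (grey, right). Points are single arrays: SWEET9, AtVEX1, SWEET14, SWEET13 and SWEET4 lie well below their wild-type points, and the 7 genes to their right lie close to them.

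The late pollen and pollen tube list has 70 genes, with a named probe set for 14 and a test for 10. The mean of each of these 10 was lower in atyak1-1, and 9 had both atyak1-1 arrays below both wild-type arrays (15.8% of all probe sets did), but 3 passed (1.06% of all probe sets did), and 7 passed with the replicate block (5.20% of all probe sets did). Of all 15164 probe sets 5569 had a lower mean in atyak1-1. The filter took the mean over all arrays, so a fall in the mutants could itself keep a member out of the test. PLIM2a and AT4G39110, with geometric means of 26.5 and 29.3 in atyak1-1, were tested because of their wild-type signals. The counts and the median thus describe the tested members only. The list's median was -1.55, at -1.08 within replicate 1 and -2.09 within replicate 2. Its summed signal was 1842 and 1298 in atyak1-1 against 5810 and 7119 in the wild type. The largest wild-type parts were AtVEX1, at 1420 and 2613, and PLIM2a, at 1409 and 1267. AtVEX1 is also a member of the SWEET list, so the 2 lists are not separate.

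PLIM2a encodes a LIM protein that bundles actin filaments in pollen and was at 26.3 and 26.6 in atyak1-1 and at 1409 and 1267 in the wild type. It fell 50.5-fold (-5.66 ± 0.38, adjusted p = 0.0029), or -4.55 on the log2(signal + 32) scale, and its atyak1-1 arrays hardly differed. AT4G39110, the receptor kinase gene listed as BUPS1, which guards the integrity of the growing tube, had 44.9 and 19.1 against 458 and 393 (-3.86 ± 0.49, adjusted p = 0.021, and -2.86 on that scale). The actin gene ACT12 fell 2.77-fold to 153 and 155 in atyak1-1, against 353 and 516 in the wild type (-1.47 ± 0.23, adjusted p = 0.046).

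PLIM2b, a relative of PLIM2a, had 354 and 181 in atyak1-1 against 735 and 760 in the wild type and did not pass (-1.56 ± 0.31, adjusted p = 0.084, and 0.0087 with the block). Without atyak1-1 replicate 1 PLIM2b had -2.05 and passed (adjusted p = 0.0052), and without atyak1-1 replicate 2 it had -1.08 and did not (adjusted p = 0.12). The MADS-box genes AGL66 and AGL104, regulators of pollen maturation, had -1.87 and -1.53. They passed in the fit with the block (adjusted p = 0.0496 and 0.033) and not in the fit without it (0.17 and 0.10). ACT11, AGL30 and AGL65, also on the list, had -0.47, -0.64 and -0.11. They passed in neither limma fit (adjusted p = 0.23, 0.43 and 0.90 without the block). AGL65 had 0.37 within replicate 1 and -0.59 within replicate 2. RALFL25 and TUA1 are not on the list. RALFL25, which encodes a small secreted signalling peptide, fell to 32.4 and 19.9 in atyak1-1, against 1132 and 794 in the wild type (-5.22 ± 0.52, adjusted p = 0.0097, limma). The tubulin gene TUA1 fell to 359 and 463, against 1077 and 851 (-1.23 ± 0.19, adjusted p = 0.043). Their relatives RALFL31, RALFL32, RALFL33 and TUA6 had -0.25, -0.20, -0.47 and 0.01 and did not pass. AtVEX1, AGL66, AGL104, ACT11, AGL30, AGL65, RALFL25, TUA1 and these relatives were named after their values were seen.

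Other members of the late pollen and pollen tube list lay below the signal filter. In the fit without it, the tube receptor kinase genes ANX1 and ANX2 had signals of 4.07 and 2.77 and of 23.6 and 5.28 in atyak1-1, against 80.8 and 89.3 and against 286 and 165 in the wild type. Neither passed (adjusted p = 0.071 and 0.060, limma). AT2G21480, listed as BUPS2, had 33.7 and 9.01 against 132 and 99.96 (-2.72, adjusted p = 0.14). The groups overlapped for AGL94, at 27.2 and 13.1 in atyak1-1 and 22.4 and 35.1 in the wild type (-0.57, adjusted p = 0.75). All of these were named after their values were seen, as was MGH3. MGH3, a histone gene from the sperm list, had 64.7 and 46.9 in atyak1-1 and 158 and 276 in the wild type (-1.92, adjusted p = 0.14).

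Genes of earlier anther development did not pass in either direction. The 5 tested tapetum and pollen wall genes, of 26 listed, had a median of 0.22, and 0 had an unadjusted p of 0.05 or less in limma. AMS, a master regulator of the tapetum, had 700 and 1227 in atyak1-1 and 586 and 912 in the wild type (0.34 ± 0.33, adjusted p = 0.67). SWEET8, which the list holds for its part in pollen wall formation, had 1443 and 1658 against 775 and 1624 (0.46 ± 0.32, adjusted p = 0.55). In both groups the replicate 2 array held the higher summed signal of this list, at 7400 and 12428 in atyak1-1 and at 6161 and 11526 in the wild type. AT5G07230 (A9) and AT1G75920 (EXL5), tapetum genes, had 0.22 and -0.20.

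Of 3 tested early anther genes, SPL, which specifies the cells that enter meiosis, had 263 and 193 in atyak1-1 against 140 and 154 in the wild type (0.62 ± 0.30, adjusted p = 0.41). ROXY1 had 0.58 and the receptor kinase gene EMS1 0.01. ATMND1, the single tested meiosis gene of 15 listed, had 99.4 and 228 against 114 and 105, so its groups overlapped. With 1 to 5 tested genes per list, these groups were thinly measured.

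**Figure D3:**
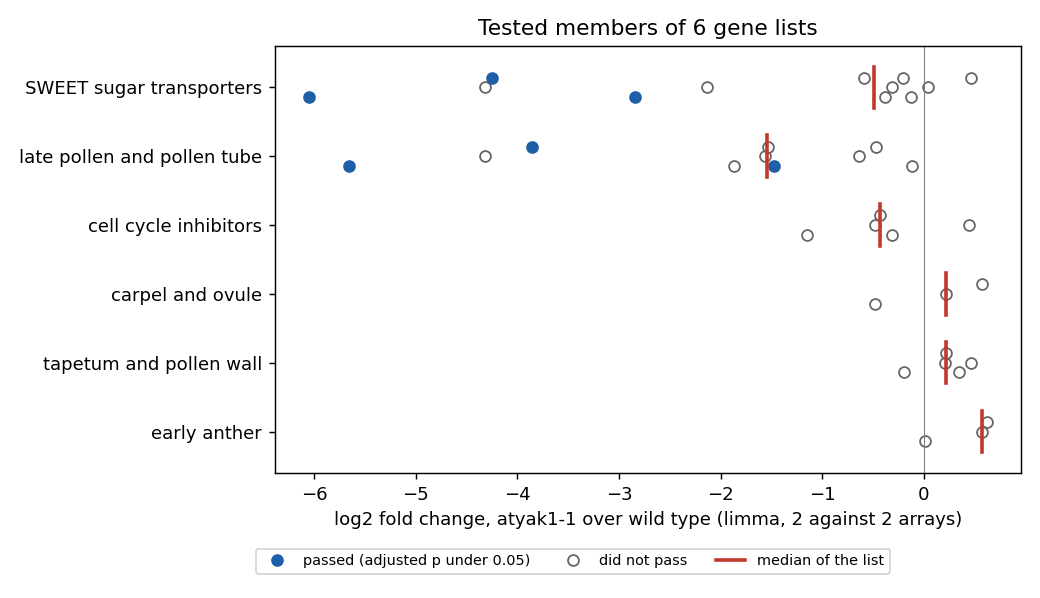
Log2 fold change of atyak1-1 over the wild type for each tested gene of the 6 lists with at least 3 tested genes, with filled points for genes that passed and a red bar for the list's median. The medians are -0.49 for SWEET genes, -1.55 for late pollen, -0.43 for cell cycle inhibitors, 0.22 for carpel and ovule, 0.22 for tapetum and pollen wall and 0.58 for early anther.

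Cell cycle inhibitors of the SIAMESE family, which restrain cyclin-dependent kinases, had lower means in 4 of 5 tested genes, with a median of -0.43, and 0 passed (1 had an unadjusted p under 0.05 in limma). Over all 15164 probe sets 5569 had a lower mean and 2145 such a p, so these counts are no result about the family. AT5G02420 (SMR3) had 195 and 73.1 in atyak1-1 against 285 and 245 in the wild type (-1.15 ± 0.47, adjusted p = 0.35), with -1.86 without atyak1-1 replicate 1 (adjusted p = 0.046) and -0.44 without atyak1-1 replicate 2 (adjusted p = 0.65). AT5G40460, AT1G08180 and SIM had -0.48, -0.43 and -0.32, and AT1G10690 (SMR8), the one with a higher mean, had 0.45 (adjusted p = 0.71). The kinase gene cdc2cAt, related to cyclin-dependent kinases, is not on this list and was named after its values were seen. It fell to 35.2 and 37.9 in atyak1-1, against 255 and 199 in the wild type (-2.62 ± 0.29, adjusted p = 0.013, limma). With log2(signal + 32) its change was -1.91, and its atyak1-1 signals were under the filter of 73.6.

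In the carpel and ovule list ALC, a regulator of fruit opening, had 894 and 740 in atyak1-1 against 464 and 644 in the wild type (0.57 ± 0.21, adjusted p = 0.29), SPT had 0.22 and INO -0.48. RCA, the activase of the carbon-fixing enzyme Rubisco and the single tested photosynthesis gene, was at 12729 and 11773 against 11095 and 14785 (-0.07, adjusted p = 0.88). For the TOR pathway, the growth-promoting kinase system that is linked to Yak1 kinases in other organisms, RAPTOR1 had -0.42 and RAPTOR2 0.09 (adjusted p = 0.59 and 0.85).

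Among stress and hormone genes, COR47, a dehydrin induced by cold and drought, had 3659 and 1871 in atyak1-1 against 5778 and 4996 in the wild type and did not pass (-1.04 ± 0.32, adjusted p = 0.22, and 0.012 with the block). It had -1.52 without atyak1-1 replicate 1 (adjusted p = 0.017) and -0.55 without atyak1-1 replicate 2 (adjusted p = 0.41). JMT, which makes methyl jasmonate, had 231 and 365 against 456 and 631 (-0.88 ± 0.32, adjusted p = 0.29, and 0.014 with the block). COR15A had -0.19 and the clock gene GI 0.07. The lists for sperm, floral organ identity, meristem, salicylic acid defence and heat stress had 0 tested genes.

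The remaining named genes that fell are of several kinds. AT4G24380 had 210 and 162 in atyak1-1 against 3295 and 3597 in the wild type, an 18.7-fold fall with little spread (-4.22 ± 0.24, adjusted p = 0.0016). AT4G19430 had 371 and 278 against 2405 and 2623 (-2.97 ± 0.18, adjusted p = 0.0018). AT3G61160 belongs to the GSK3/shaggy group of kinases and fell 11.6-fold to 136 and 90.3, against 1488 and 1119 (-3.54 ± 0.31, adjusted p = 0.0071). AT1G54020 and AT3G48460, of the GDSL family of lipases, had log2 fold changes of -2.50 and -1.16, 4CL8, a relative of coumarate-CoA ligases, had -1.98, and AT5G15140, of the aldose epimerase family, had -1.84. The small GTP-binding protein gene SGP2 had -2.58, AT2G27180 had -2.80 and PC1, a symbol of the platform table, had -2.65. The glutathione transferase gene GSTU20 (-0.98, adjusted p = 0.025) was at 1349 and 1540 in atyak1-1 against 2957 and 2737 in the wild type.

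Among the lower probe sets with no gene name, chosen after their values were seen, the first had 454 and 443 in atyak1-1 against 5801 and 5379 in the wild type (-3.64 ± 0.16, adjusted p = 0.0016), and another had 89.9 and 81.5 in atyak1-1 against 2153 and 1478 in the wild type (-4.38 ± 0.22, adjusted p = 0.0016). They were the only probe sets that passed in limma without wild-type replicate 2, and were among the 6 that passed without wild-type replicate 1, with AT4G24380 and AT5G11420 as the named genes of that 6.

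The replicates differed in how far transcripts fell. Over all 15164 probe sets, 399 were more than 2-fold lower in atyak1-1 within replicate 1 and 751 within replicate 2. The 308 that they share are 77.2% of the replicate 1 set and 41.0% of the replicate 2 set. More than 2-fold rises were fewer, at 167 and 252, and the 50 shared ones are 29.9% and 19.8% of them. Another 97 probe sets were over 4-fold lower within replicate 2 and under 2-fold lower within replicate 1, against 4 with the opposite pattern, and none of these passed. The 97 had a median signal on the replicate 1 and 2 arrays of 279 and 66.7 in atyak1-1 and 422 and 457 in the wild type, values that follow from how the 97 were picked.

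The probe sets that passed showed the same lean. Of the 143 lower ones 106 changed more within replicate 2 and 37 more within replicate 1, with medians of -2.54 and -2.21. For 83 of them the changes lay within 1.5-fold of each other, and for 29 they lay over 2-fold apart. The fit without the block counts such a gap as spread, so probe sets with a wide gap were less likely to pass. These counts were not set beside those of all probe sets. Of the 17 higher ones 7 changed more within replicate 2 and 10 within replicate 1, with medians of 1.51 and 1.56.

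**Figure D4:**
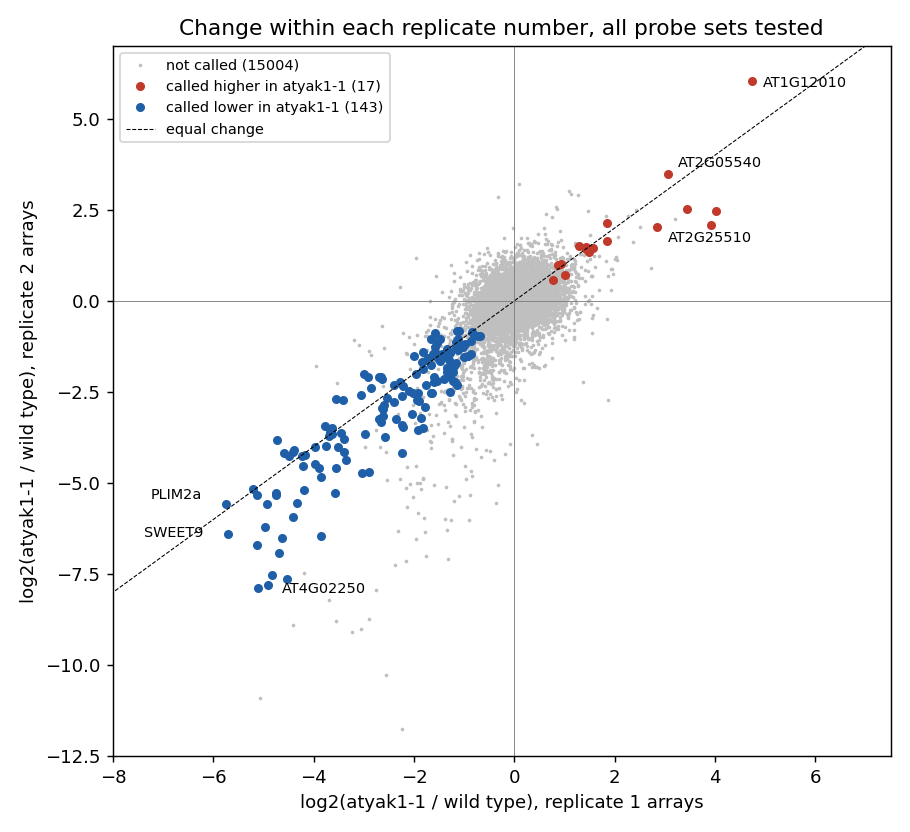
Log2 ratio of atyak1-1 over the wild type on the replicate 2 arrays (vertical) against the replicate 1 arrays (horizontal) for the 15164 probe sets tested, with the 17 called higher in red, the 143 called lower in blue and a dashed line of equal change. Many points lie below the dashed line at the lower left, where the fall within replicate 2 is the larger, and AT1G12010 stands alone at the upper right.

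The widest gaps among named genes that passed were in transcripts that nearly vanished from replicate 2. AT2G19000 had 39.6 and 7.87 in atyak1-1 against 1129 and 1461 in the wild type, which is -4.83 within replicate 1 and -7.54 within replicate 2. AT5G47000, a peroxidase gene, had 125 and 19.4 against 1805 and 1713, and AT5G26700, of the cupin family, 92.8 and 14.6 against 2388 and 1785. In each case the atyak1-1 signals were far below both wild-type signals, and the gap lies between values of which the lower is dim. AT5G64790, a glycosyl hydrolase gene, and AT5G49130, of the MATE family of efflux carriers, had -2.24 and -2.90 within replicate 1 and -4.16 and -4.71 within replicate 2. AT5G15110, AT4G02250 and AT5G07420, described above, complete the 8 genes with the widest gaps.

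At the other end, SWEET14, AT5G15140, AT1G53035, the F-box gene AT2G26850 and AT1G02470, of the polyketide cyclase and lipid transport superfamily, changed almost equally in both replicates. AT2G26850 had -3.64 and -3.66, and AT1G02470 had -1.33 and -1.31, at signals of 171 and 160 in atyak1-1 against 431 and 396 in the wild type.

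**Figure D5:**
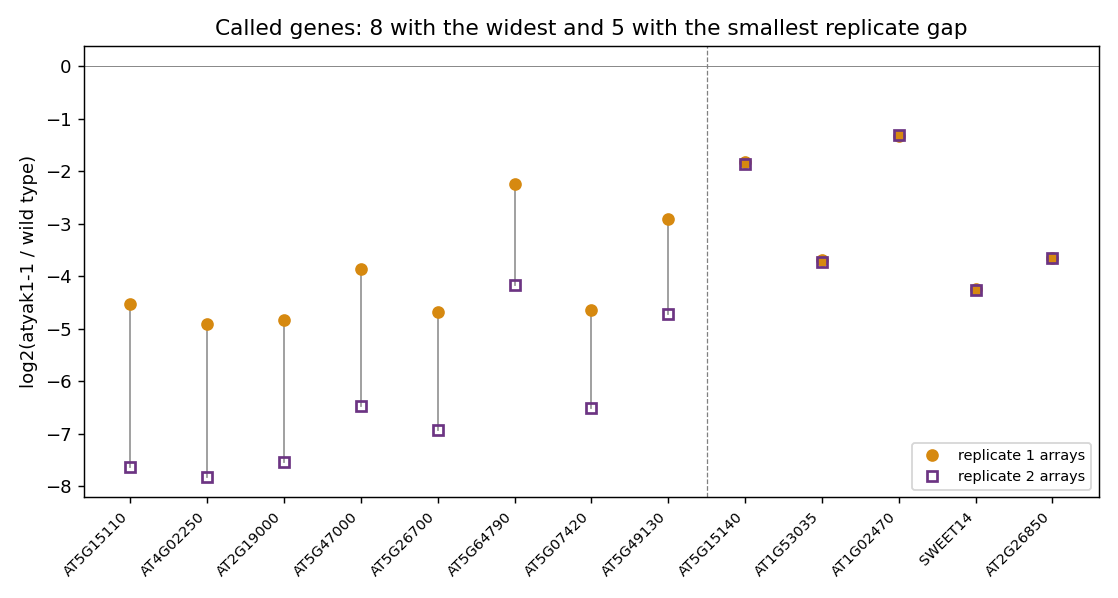
Log2 ratio of atyak1-1 over the wild type within replicate 1 (filled circles) and replicate 2 (open squares) for the 8 named genes that passed with the widest gap between replicates (left of the dashed line) and the 5 with the smallest gap among those changed at least 2-fold (right). In all 8 genes on the left the fall within replicate 2 is the deeper one, from -4.16 to -7.81.

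Whether a change was particular to atyak1-1 was tested by setting atyak1-2 against atyak1-1 in the same fit. In limma 0 of 15164 probe sets passed, 151 had an unadjusted p under 0.05, and 2 passed with the replicate block. The fit without the block leaves the shared deviation of same-numbered arrays, with a correlation of 0.61 between the alleles, in the spread. The 0 therefore does not show that the alleles agree. The smallest p was that of AT1G53035, which had signals of 365 and 652 in atyak1-2 and 29.8 and 33.1 in atyak1-1, beside 385 and 437 in the wild type. The difference of the alleles was 3.96 ± 0.29 on the log2 scale (adjusted p = 0.054, and 0.0015 with the block), and against the wild type AT1G53035 fell 13.1-fold in atyak1-1 (-3.71 ± 0.29, adjusted p = 0.0046). AT2G13350, of a family of calcium-dependent lipid-binding proteins, fell by 2.79 ± 0.26 in atyak1-1 and by 3.95 in atyak1-2, comparisons that share the wild-type arrays, and the alleles did not differ past the threshold. Among named genes SCPL43 and AT4G15680 came between AT1G53035 and AT2G13350 by the p of the allele difference, did not pass, and had 0.03 and -0.26 in atyak1-1 against the wild type.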

How the data were processed

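The authors deposited MAS5 signals, linear intensity values, and GCOS and MAS5 are the tools given, without versions, per the submitters' processing notes. Their steps and settings are not given in the sources used here. With 2% trimmed at each end the mean signal was 500.04 to the nearest hundredth, so 1 common level had been imposed, which hides any difference in total RNA. Detection calls were not used here.

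Values were analysed as log2 of the deposited signal without a pseudocount. The 64 controls were dropped, as were 7582 probe sets that were the dimmest by mean log2 signal. A model with a mean for each genotype, over all 6 arrays, was fitted in limma 3.58.1 (R 4.3.3) with a variance trend, giving 3 residual and 3.84 prior degrees of freedom. Benjamini-Hochberg adjustment ran over 15164 probe sets. Errors are limma's moderated SE. Of 22746 probe sets, the platform's table gave 13513 a single gene, 503 several and 8730 none listed, and 13436 matched a RefSeq record of assembly TAIR10.1, used for symbols only. The brightest probe set stands for a gene that has more than 1. Figures used matplotlib 3.10.9 under Python 3.11.15. On simulated data the fit recovered 40% of log2 changes of 1, 68% of those of 2 and 92% of those of 3 or 4. There were 8 false calls. The simulated arrays varied independently, unlike the same-numbered arrays here, so the simulation does not show how the fit performs on these data.

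Genes were named by rule. The first took up to 15 highest and 15 lowest that passed with groups apart and geometric mean signal above the median of all probe sets (216). Only 10 higher genes met it, and the lower ones were cut at 15. From each of 18 lists came the members that passed and up to 4 by p. Further rules took the 8 widest and 5 smallest replicate gaps and the 6 brightest in the wild type that passed. The last took the 4 smallest p between the alleles. The members, lists and rules were chosen with earlier results of these data known.

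Same-numbered arrays deviated together from their group means, with correlations of 0.25 (atyak1-1 and wild type), 0.35 (atyak1-2 and wild type) and 0.61 (between the alleles). The numbers in the titles were therefore taken to pair the samples in the replicate block and in the changes within a replicate. The main fit has no block and does not use this pairing. The correlations are weak evidence of pairing, since 2 replicates deviate by equal and opposite amounts, and no shared batch is stated.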

Additional observations from a re-analysis of the deposited data

Results flagged for a closer look

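The 2 results given here are differences between the alleles, tested as atyak1-2 against atyak1-1 with the replicate number as a block. AT1G53035 passed there (adjusted p = 0.00150) and not without the block (0.054). It was 3.96 higher on the log2 scale in atyak1-2, with every atyak1-2 array above every atyak1-1 array. A probe set without a gene name passed with the block too (adjusted p = 0.0104, and 0.19 without it). It had signals of 608 and 767 in atyak1-2 against 128 and 182 in atyak1-1, beside 828 and 779 in the wild type. Groups of 2 arrays were not tested for single outlying arrays.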

How the results depend on the processing

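Against the 160 probe sets that passed (17 higher, 143 lower), 242 passed without the filter (219 lower), 56 with a stricter filter that drops the dimmer 50% (5 higher, 51 lower), 81 in a fit to the 4 arrays compared (4 higher, 77 lower) and 789 with the replicate block (211 higher, 578 lower). Without the variance trend 8 were higher, and with log2(signal + 32) 26 were. With 1 array left out the total ran from 2 to 439, with 0 to 35 higher and 2 to 404 lower, where a group's lone array is assumed to vary like the other groups. Between the alleles 2 passed with the block, and 0 without it or without the filter in limma, where 151 had an unadjusted p under 0.05. The block also brought PLIM2b, JMT, SWEET4, COR47, AtVEX1, AGL66 and AGL104 past the threshold and took no named gene below it. With quantile normalization EMS1 turned to -0.038 and SCPL43 to -0.019. With 1 array left out, uncalled genes changed sign within these ranges: SWEET8 -0.070 to 1.00, AMS -0.062 to 0.75, AT5G07230 -0.29 to 0.73, AT1G75920 -0.68 to 0.29, ATMND1 -0.13 to 1.06, EMS1 -0.23 to 0.25, RCA -0.27 to 0.14, EIN3 -0.018 to 0.16, RAPTOR1 -0.89 to 0.060, RAPTOR2 -0.046 to 0.23, COR15A -0.41 to 0.040, SCPL43 -0.037 to 0.093 and AT4G15680 -0.53 to 0.016. The causes were not tested. Of the probe sets picked by rule or after their values were seen, 58 passed, among them some without a gene name. Most of these 58 fell short when either wild-type array was left out. Each kept its direction in every alternative that tested it, but for most alternatives this was fixed beforehand. Both atyak1-1 arrays of each lay beyond both wild-type arrays, so leaving out 1 array could not turn the sign. The block, the fit without the trend and the fit to 4 arrays leave the log2 fold change as it is. Dim signals limit the size of the largest folds, and 2 arrays per group limit precision.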
